A study of Mus musculus with 18 samples.

Results

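Embryoid bodies of the K19R line at day 6 were set against embryoid bodies of the FLAG-WT line at day 2, to ask whether the mutant at the later time had moved past the early wildtype state. The comparison holds 4 of the 18 RNA-seq libraries of the series, 2 of K19R day 6 and 2 of FLAG-WT day 2, chosen by their labelled line and day, and covers all genes. Both lines are mouse embryonic stem cells (mESCs) with FLAG-tagged EED knocked in, of the K19R mutant form (arginine in place of a lysine) in the K19R line and of wildtype sequence in the FLAG-WT line. The stem cells of both lines were kept on gelatin with LIF and 2i, which is a pair of inhibitors of MEK and GSK3. Embryoid bodies of both lines formed in suspension culture, shaken and with LIF and 2i withdrawn. FLAG-WT of days 0, 6 and 10 and K19R of days 0, 2 and 10, with 2 libraries each, served as landmarks. The labels do not say how many clones stand behind each line. Genotype and day differ together between the compared groups, so their parts cannot be told apart from these 4 libraries.

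EED is the subunit of Polycomb repressive complex 2 (PRC2) that binds trimethylated lysine 27 of histone H3 and stimulates EZH1 and EZH2, the enzymes that place the mark. The mark lies on many silent developmental regulators in stem cells. In suspension, mESCs leave naive pluripotency through a formative, epiblast-like state. An outer layer of primitive endoderm forms and matures into visceral endoderm, which takes up nutrients and secretes serum proteins and lipoproteins, and into parietal endoderm, which lays down basement membrane.

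The K19R day 6 libraries held 22985623 and 27031000 counts and the FLAG-WT day 2 libraries 21064154 and 26616431. Levels are given as CPM, the count of a gene divided by the size of its library after scaling by trimmed mean of M-values (TMM), which compares a gene between libraries and is not per length. The 10 most abundant genes took 7.19% and 7.29% of counts in K19R day 6, against 5.29% and 5.23% in FLAG-WT day 2. The labelled cells were checked against their defining markers. Pou5f1, Nanog, Sox2 and Zfp42, markers of stem cells, summed to 505 and 461 CPM in K19R day 6, against 1657 and 1639.9 CPM in FLAG-WT day 2. Gata4, Gata6, Sox17 and Dab2, markers of embryoid body endoderm, summed to 2059 and 2107 CPM in K19R day 6, against 1529 and 1503 CPM in FLAG-WT day 2, with Dab2 and Sox17 higher and Gata4 and Gata6 lower. Dab2, an endocytic adaptor, took most of this sum, and without it the markers summed to 260.1 and 269.6 CPM in K19R day 6, against 397.1 and 392.2 CPM in FLAG-WT day 2. Markers of mesoderm (T, Mixl1, Mesp1 and Kdr) summed to 3.69 and 3.17 CPM in K19R day 6, against 5.69 and 5.55 CPM in FLAG-WT day 2. Both groups thus held stem cell and endoderm transcripts and few of mesoderm. Neural markers (Nes, Pax6 and Sox1) summed to 76.0 and 79.3 CPM in K19R day 6, against 18.7 and 18.5 CPM in FLAG-WT day 2, with Nes higher and Pax6 and Sox1 lower. Nes took most of this sum, at 74.7 and 77.7 CPM in K19R day 6. It was higher still in the day 0 stem cells, at 111 and 105 CPM in FLAG-WT and 116 and 118 CPM in K19R. The sum is thus not particular to neural cells here. Among the landmarks, FLAG-WT day 0 replicate 2 stood apart in serum and lipid protein genes of endoderm, whose tested list members summed to 177 CPM in it and to 49.5 CPM in replicate 1. In bulk RNA, fewer cells of a type and less RNA per cell cannot be told apart, which holds for every result that follows.

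Most genes differed between K19R day 6 and FLAG-WT day 2. Of 19092 genes tested, 12511 passed edgeR's quasi-likelihood test at an adjusted p of 0.05 (65.5%), with 6454 higher (33.8%) and 6057 lower (31.7%) in K19R day 6. At least a 2-fold difference was seen in 6141 of them, 3431 higher and 2710 lower. The CPM values of the groups did not overlap for 15897 genes (83.3%). The median log2 fold change over all genes tested was 0.02. Counts of list members that passed are to be read against these shares, as are statements that groups did not overlap.

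The direction was then read along the FLAG-WT course, from FLAG-WT libraries of days 0 and 10 that are not part of the comparison. A set of 4965 genes rose at least 2-fold from day 0 to day 10 of FLAG-WT, here called later higher, and 5375 genes fell at least 2-fold, here called later lower. Without the fold limit 77.9% of genes passed between those days, 37% higher and 40.9% lower at day 10. Of the later-higher genes, 3414 were higher in K19R day 6 than in FLAG-WT day 2 (68.8%), 404 were lower (8.14%) and 1147 did not pass. Of the later-lower genes, 2933 were lower in K19R day 6 (54.6%), 625 were higher (11.6%) and 1817 did not pass. In both classes the largest share thus lay on the later side. The median log2 fold change was 0.93 for later-higher genes and -0.73 for later-lower genes. Among later-higher genes it was 0.50 for those with a FLAG-WT rise of 2 to 4-fold, 1.10 for 4 to 16-fold and 1.98 for 16-fold or more.

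**Figure D1:**
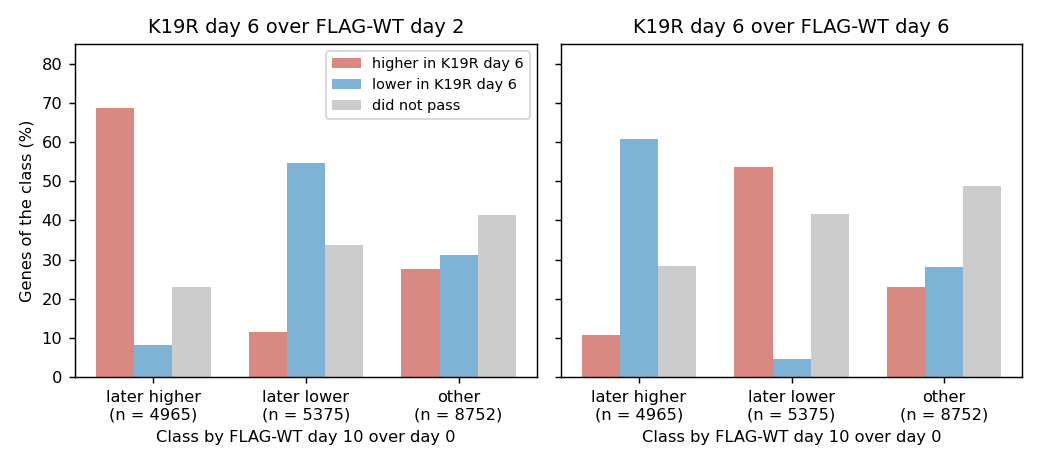
Share of the genes of each class of the FLAG-WT course that were higher, lower or did not pass in K19R day 6 (percent of the class), against FLAG-WT day 2 and against FLAG-WT day 6. Of 4965 later-higher genes, 3414 were higher in K19R day 6 than in FLAG-WT day 2 and 3021 were lower than in FLAG-WT day 6.

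Against FLAG-WT of the same day the classes lay on the other side. Of the later-higher genes, 539 were higher and 3021 lower in K19R day 6 than in FLAG-WT day 6, where 28.4% and 30.1% of all genes were. Of the later-lower genes, 2880 were higher and 254 lower. Over all genes, 72.1% passed between K19R day 6 and FLAG-WT day 0 (36.8% higher, 35.3% lower), 58.5% between K19R day 6 and FLAG-WT day 6 and 64.7% between K19R day 6 and FLAG-WT day 10 (32.5% higher, 32.2% lower). These values share the K19R day 6 libraries with those against FLAG-WT day 2. Scaling by library totals alone in place of TMM gave a median over all genes of 0.38 in place of 0.02 against FLAG-WT day 6, with 8582 genes higher and 3188 lower in place of 5429 and 5742. The classes kept their side under it, with 912 later-higher genes higher and 2223 lower, and 3531 later-lower genes higher and 103 lower.

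Each library was also placed on the line from the FLAG-WT day 0 mean, set at 0, to the FLAG-WT day 10 mean, set at 1, by its log2 CPM over all genes tested. The K19R day 6 libraries lay at 0.585 and 0.602, against 0.270 and 0.266 for FLAG-WT day 2. The FLAG-WT day 6 libraries lay further along, at 0.827 and 0.849. K19R stood at -0.007 and -0.009 on day 0, at 0.205 and 0.206 on day 2, and at 0.703 and 0.720 on day 10. K19R day 6 was thus past FLAG-WT day 2 and short of FLAG-WT day 6 on this line. Differences that lie off the line do not enter these positions. With 2 libraries a group no exact permutation test can reach 0.05, so the positions are a description. Between group means, the root mean square log2 difference of K19R day 6 was 1.04 from FLAG-WT day 6 and 1.28 from FLAG-WT day 2. It was 1.37 from FLAG-WT day 10 and 1.68 from FLAG-WT day 0. Between replicates it was 0.388 to 0.519, but these are single libraries, which vary more than means.

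**Figure D2:**
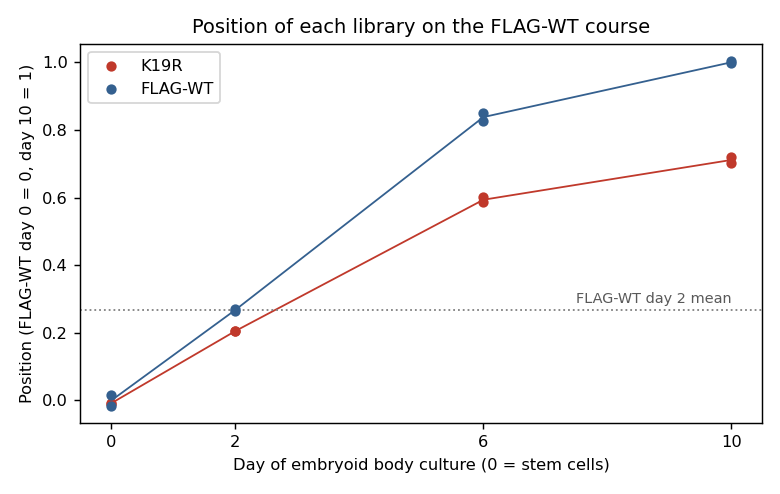
Position of the 16 FLAG-EED libraries on the line from FLAG-WT day 0 (0) to FLAG-WT day 10 (1), by day of culture, with points for libraries and lines through group means. The K19R day 6 libraries (0.585 and 0.602) lie above those of FLAG-WT day 2 (0.270 and 0.266) and below those of FLAG-WT day 6.

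Secreted proteins of visceral endoderm held the largest rise. Afp, which encodes alpha-fetoprotein, a serum protein of the fetus (chromosome 5, 90490737 to 90508907 on GRCm38), stood at 2553 and 2294 CPM in K19R day 6, against 2.76 and 2.83 CPM in FLAG-WT day 2. The groups lay far apart, with a log2 fold change of 9.76 ± 0.72 (SE, n = 2 each; adjusted p = 4.96e-12 by edgeR). Fga, of the fibrinogen alpha chain, was at 39.9 and 30.4 CPM in K19R day 6, against 0.172 and 0.0690 CPM in FLAG-WT day 2. Apoa2, of high-density lipoprotein, was at 41.97 and 29.9 CPM in K19R day 6, against 0.259 and 0.172 CPM in FLAG-WT day 2. Ttr, the thyroid hormone carrier transthyretin, was at 295 and 236 CPM in K19R day 6, against 4.61 and 4.83 CPM in FLAG-WT day 2. Non-overlap of the groups was part of the rule that named these genes, so it is no result for them. The lipoprotein gene Apoa1 was at 733 and 647 CPM in K19R day 6, against 14.4 and 15.9 CPM in FLAG-WT day 2.

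The rest of the list moved the same way, and its tested members summed to 9717 and 9159 CPM in K19R day 6, against 1197 and 1142 CPM in FLAG-WT day 2. Of 20 tested genes of 22 on a list of visceral endoderm serum and lipid proteins, 19 rose, none fell and 1, with no count in either group, did not pass. Their median log2 fold change was 5.12, beside 0.02 for all genes, and was 4.51 with the members at 0 counts in FLAG-WT day 2 set at a bound of 3 counts per library and 1 member left out. Apob, the core protein of secreted lipoproteins, was at 1467 and 1447 CPM in K19R day 6, against 94.8 and 92.6 CPM in FLAG-WT day 2. Rbp4, the serum carrier of retinol, was at 891 and 780.00 CPM in K19R day 6, against 8.80 and 10.7 CPM in FLAG-WT day 2. Both were strongly expressed in K19R day 6. Albumin (Alb) was near the limit of detection, with 12 counts in K19R day 6 over both libraries and 0 in FLAG-WT day 2, at least 2.00-fold higher.

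For these genes K19R day 6 also stood below FLAG-WT day 6. Afp averaged 6364 CPM and Rbp4 4516 CPM in FLAG-WT day 6. Against that group 18 of the 20 were lower in K19R day 6 and none higher, with a median of -1.97, and 17 were lower under library totals.

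**Figure D3:**
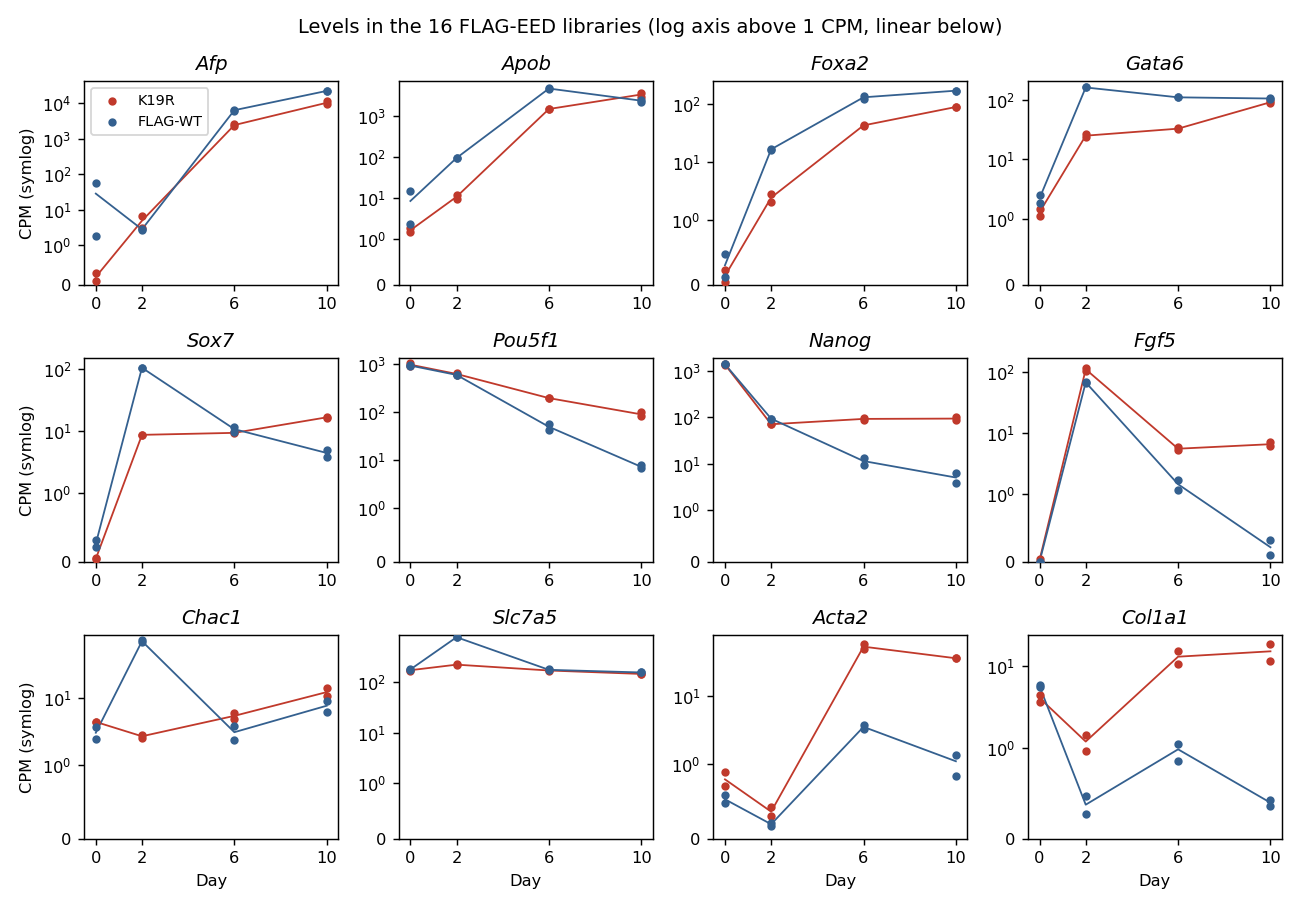
Levels of 12 genes (CPM) in the 16 FLAG-EED libraries by day, for K19R and FLAG-WT, with points for libraries and lines for group means. Afp in K19R day 6 lies far above FLAG-WT day 2, Gata6 and Sox7 in K19R day 6 lie below FLAG-WT day 2, and Acta2 and Col1a1 lie above every FLAG-WT day.

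Genes of uptake and digestion in visceral endoderm mostly rose. On that list 13 of 16 rose, 2 fell and 1 did not pass, with a median of 1.37. Ctsh, a lysosomal protease, was at 357 and 373 CPM in K19R day 6, against 20.2 and 19.8 CPM in FLAG-WT day 2. Vil1, which bundles actin in microvilli, was at 65.8 and 69.2 CPM in K19R day 6, against 3.79 and 4.24 CPM in FLAG-WT day 2. Both had log2 fold changes over 4. The endocytic receptor Lrp2 (megalin) fell, at 736 and 809 CPM in K19R day 6, against 1665 and 1662 CPM in FLAG-WT day 2. Its partner Cubn (cubilin) did not pass, at 1653 and 1688 CPM in K19R day 6, against 2057 and 2159.93 CPM in FLAG-WT day 2. Against FLAG-WT day 6 all 16 were lower in K19R day 6, and 15 under library totals.

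Basement membrane and simple epithelial keratin genes rose as well. Of 16, 14 rose, 1 fell and 1 did not pass, with a median of 1.44. Krt8 was at 763 and 769 CPM in K19R day 6, against 35.96 and 35.97 CPM in FLAG-WT day 2. Its filament partner Krt18 was at 934 and 944 CPM in K19R day 6, against 35.7 and 37.7 CPM in FLAG-WT day 2. Plat, tissue plasminogen activator of parietal endoderm, was at 32.6 and 31.8 CPM in K19R day 6, against 3.49 and 2.07 CPM in FLAG-WT day 2. None of these groups overlapped, as for 83.3% of all genes tested. The member that fell was Fst, of the activin antagonist follistatin, at 5.06 and 6.06 CPM in K19R day 6, against 29.5 and 30.04 CPM in FLAG-WT day 2. Against FLAG-WT day 6, 13 of the 16 were lower in K19R day 6 and 1 higher, with a median of -1.08. Under library totals 12 were lower.

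**Figure D4:**
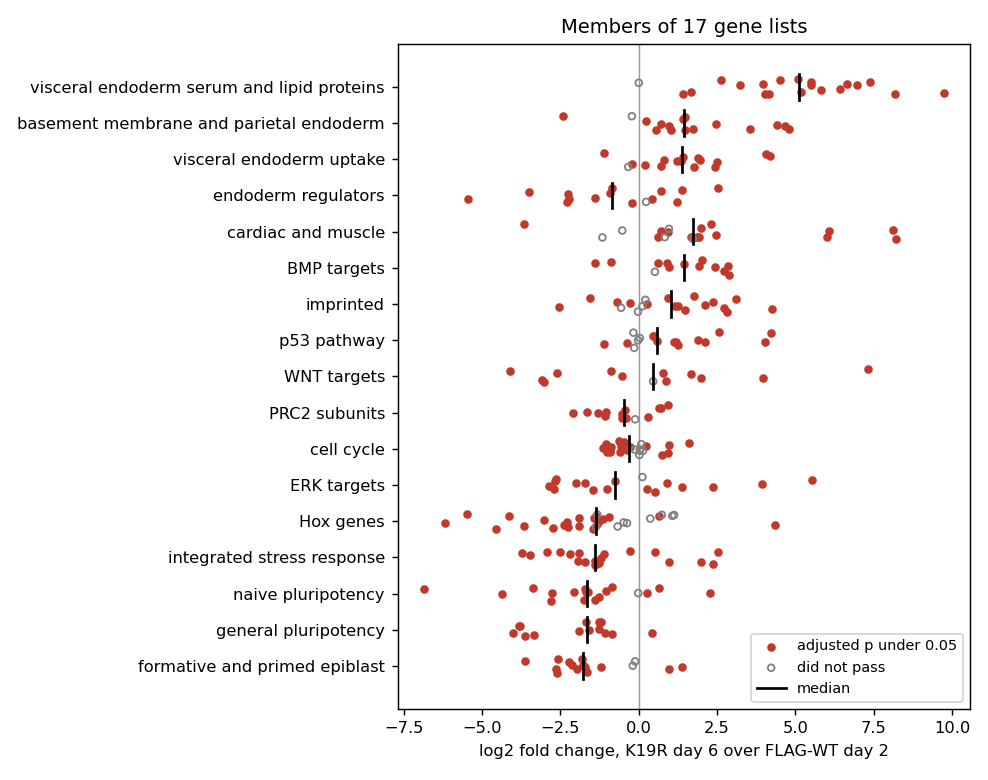
Log2 fold change of K19R day 6 over FLAG-WT day 2 for the members of selected lists, 1 point per gene, with members at 0 counts in a group at their fitted values. Serum and lipid protein genes lie almost wholly above 0 (median 5.12) and general pluripotency genes almost wholly below it (median -1.65).

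Regulators that specify endoderm moved in both directions. Of 15 tested of 16, 5 rose, 9 fell and 1 did not pass, with a median of -0.86. Gata6, which drives the primitive endoderm fate, was at 32.8 and 32.1 CPM in K19R day 6, against 160.00 and 160.22 CPM in FLAG-WT day 2 (log2 fold change -2.30 ± 0.08; adjusted p = 1e-18 by edgeR). Sox7, of early extraembryonic endoderm, was at 9.47 and 9.15 CPM in K19R day 6, against 104 and 105 CPM in FLAG-WT day 2. Both were more than 4-fold lower. Lefty1, an inhibitor of Nodal signalling, was at 1.32 and 0.599 CPM in K19R day 6, against 44.4 and 38.3 CPM in FLAG-WT day 2. Pdgfra, a receptor of primitive endoderm precursors, was at 46.8 and 45.3 CPM in K19R day 6, against 216 and 219.75 CPM in FLAG-WT day 2.

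Other regulators were higher. Foxa2, a factor of endoderm, was at 41.9 and 43.5 CPM in K19R day 6, against 16.99 and 16.1 CPM in FLAG-WT day 2. Sox17 was at 45.5 and 49.4 CPM in K19R day 6, against 20.1 and 20.4 CPM in FLAG-WT day 2, and Foxa3, a liver and gut factor, at 17.9 and 17.99 CPM in K19R day 6, against 3.10 and 3.07 CPM in FLAG-WT day 2. Hnf4a, which acts on serum protein genes, differed less, at 133 and 124 CPM in K19R day 6, against 96.8 and 93.7 CPM in FLAG-WT day 2. Gata4 was only slightly lower, at 182 and 188 CPM in K19R day 6, against 217 and 212 CPM in FLAG-WT day 2, and its call was lost when any 1 of the 4 libraries was left out. At day 2, K19R had averaged 24.8 CPM of Gata6, 20.4 CPM of Gata4 and 8.64 CPM of Sox7. Sox7 in K19R day 6 was near its FLAG-WT day 6 mean of 10.7 CPM, while Gata6 was below its FLAG-WT day 6 mean of 109 CPM.

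Pluripotency genes were mostly lower in K19R day 6 than in FLAG-WT day 2. Of 14 general pluripotency genes 13 fell and 1 rose, and of 18 naive pluripotency genes 14 fell, 3 rose and 1 did not pass, both with a median of -1.65. Pou5f1, of the core factor OCT4, was at 192 and 197 CPM in K19R day 6, against 596 and 585 CPM in FLAG-WT day 2 (log2 fold change -1.60 ± 0.10; adjusted p = 1.33e-13 by edgeR). Sox2, its partner, was at 112 and 96.4 CPM in K19R day 6, against 336 and 339 CPM in FLAG-WT day 2. Foxd3, a repressor of stem cells and neural crest, was at 4.09 and 3.59 CPM in K19R day 6, against 59.5 and 64.6 CPM in FLAG-WT day 2. The groups did not overlap for any of these, as for 83.3% of all genes tested. Tdgf1, the Nodal co-receptor Cripto, was at 45.1 and 37.7 CPM in K19R day 6, against 564 and 579 CPM in FLAG-WT day 2. Nr0b1 (DAX1), of the naive network, was at 5.74 and 5.60 CPM in K19R day 6, against 119 and 117 CPM in FLAG-WT day 2.

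Nanog did not pass. It was at 98.2 and 87.9 CPM in K19R day 6, against 94.3 and 93.8 CPM in FLAG-WT day 2, and the groups overlapped, with a log2 fold change of -0.02 ± 0.10. Both groups stood far below the FLAG-WT day 0 mean of 1406 CPM, and FLAG-WT day 6 averaged 11.5 CPM. Esrrb, an orphan nuclear receptor of naive cells, was at 82.2 and 68.9 CPM in K19R day 6, against 255 and 249 CPM in FLAG-WT day 2. Klf4 was at 29.6 and 26.1 CPM in K19R day 6, against 49.8 and 50.9 CPM in FLAG-WT day 2. Both of these were lower. Dppa3 (Stella) rose, at 20.4 and 17.9 CPM in K19R day 6, against 3.88 and 3.97 CPM in FLAG-WT day 2, and Lin28a, which blocks let-7 processing, was the general pluripotency gene that rose, at 324 and 333 CPM in K19R day 6, against 235 and 259 CPM in FLAG-WT day 2. Against FLAG-WT day 6, 11 general and 10 naive genes were higher in K19R day 6 and 2 and 5 lower, with 12 and 10 higher under library totals.

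Genes of the formative epiblast had come down. Of 16, 12 fell, 2 rose and 2 did not pass, with a median of -1.79. Fgf5, the growth factor that marks this state, was at 5.86 and 5.18 CPM in K19R day 6, against 68.2 and 66.9 CPM in FLAG-WT day 2 (log2 fold change -3.62 ± 0.12). Otx2, an epiblast and forebrain factor, was at 73.9 and 78.4 CPM in K19R day 6, against 256 and 269 CPM in FLAG-WT day 2. Dnmt3l, a cofactor of de novo DNA methylation, was at 67.9 and 60.9 CPM in K19R day 6, against 384 and 379.83 CPM in FLAG-WT day 2. Each was at least 3-fold lower. In K19R day 2 Fgf5 averaged 111 CPM and Otx2 334 CPM. Against FLAG-WT day 6, 11 of the 16 formative genes were higher in K19R day 6 and 5 lower, with a median of 1.08. Under library totals 11 were higher and 2 lower. Targets of ERK signalling were mixed, with 7 of 17 higher and 9 lower. Spry4, a feedback inhibitor, was at 26.3 and 25.6 CPM in K19R day 6, against 160.05 and 171 CPM in FLAG-WT day 2, and Etv4, an ETS factor, at 15.6 and 14.8 CPM in K19R day 6, against 92.7 and 97.8 CPM in FLAG-WT day 2. The immediate early gene Fos went the other way, at 24.8 and 27.1 CPM in K19R day 6, against 0.517 and 0.586 CPM in FLAG-WT day 2.

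Genes of the integrated stress response, which ATF4 drives when amino acids run short or protein folding fails, were mostly lower. Of 19, 14 fell and 5 rose, with a median of -1.39. Chac1, which degrades glutathione, was at 4.90 and 6.02 CPM in K19R day 6, against 70.02 and 74.8 CPM in FLAG-WT day 2 (log2 fold change -3.72 ± 0.17; adjusted p = 2.5e-16 by edgeR). Slc7a3, a transporter of cationic amino acids, was at 20.7 and 19.9 CPM in K19R day 6, against 227 and 227 CPM in FLAG-WT day 2. Nupr1, a stress-induced chromatin protein, was at 4.41 and 3.63 CPM in K19R day 6, against 30.7 and 30.8 CPM in FLAG-WT day 2. These groups did not overlap, as for 83.3% of all genes tested, and for Chac1 this was part of a rule that named it. Chac1 averaged 3.04 CPM in FLAG-WT day 0, 3.10 CPM in FLAG-WT day 6 and 2.69 CPM in K19R day 2, so FLAG-WT day 2 stood above these groups as well. Nupr1 was likewise low there, at 1.32 and 1.32 CPM in K19R day 2 and 4.16 and 2.92 CPM in FLAG-WT day 6. Slc7a3 differed, at 206 and 216 CPM in K19R day 2, near FLAG-WT day 2. Asns, asparagine synthetase, was at 196 and 184 CPM in K19R day 6, against 454 and 466 CPM in FLAG-WT day 2, and Slc7a11, the cystine transporter, at 1.73 and 1.51 CPM in K19R day 6, against 4.66 and 3.86 CPM in FLAG-WT day 2. Atf3, a stress factor of the same pathway, rose, at 63.04 and 65.7 CPM in K19R day 6, against 10.5 and 11.9 CPM in FLAG-WT day 2, as did Ddit4, an inhibitor of mTORC1, at 136 and 160.28 CPM in K19R day 6, against 28.2 and 28.8 CPM in FLAG-WT day 2.

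Sequences before the starts of 5 of these genes are shown because the letters TGATGNAA, those of the amino acid response element, searched on both strands from 250 bases before to 50 after each start, were found there (RefSeq, GRCm38.p6). They are Chac1 (chr2:119350992-119351241, plus strand), Nupr1 (chr7:126625471-126625720, minus strand), Slc7a11 (chr3:50443614-50443863, minus strand), Asns (chr6:7693210-7693459, minus strand) and Atf3 (chr1:191183334-191183583, minus strand). Capitals mark each match, read on either strand.
Chac1: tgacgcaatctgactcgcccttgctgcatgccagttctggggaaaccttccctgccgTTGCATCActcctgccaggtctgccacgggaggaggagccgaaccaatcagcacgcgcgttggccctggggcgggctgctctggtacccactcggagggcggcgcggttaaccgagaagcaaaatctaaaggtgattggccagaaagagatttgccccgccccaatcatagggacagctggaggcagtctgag
Nupr1: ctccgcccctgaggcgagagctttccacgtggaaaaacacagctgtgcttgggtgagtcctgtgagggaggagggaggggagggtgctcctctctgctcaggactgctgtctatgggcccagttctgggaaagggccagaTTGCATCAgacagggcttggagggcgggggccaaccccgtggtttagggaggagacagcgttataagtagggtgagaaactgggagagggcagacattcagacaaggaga
Slc7a11: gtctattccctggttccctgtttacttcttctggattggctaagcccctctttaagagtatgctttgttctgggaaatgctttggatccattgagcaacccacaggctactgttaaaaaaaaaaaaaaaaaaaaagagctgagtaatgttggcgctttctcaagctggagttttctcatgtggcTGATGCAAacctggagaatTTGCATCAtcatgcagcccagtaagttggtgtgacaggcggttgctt
Asns: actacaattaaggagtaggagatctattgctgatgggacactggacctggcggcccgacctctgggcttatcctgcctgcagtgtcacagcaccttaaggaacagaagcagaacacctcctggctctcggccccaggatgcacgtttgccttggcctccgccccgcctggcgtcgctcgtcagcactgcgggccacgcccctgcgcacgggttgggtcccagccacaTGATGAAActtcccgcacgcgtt
Atf3: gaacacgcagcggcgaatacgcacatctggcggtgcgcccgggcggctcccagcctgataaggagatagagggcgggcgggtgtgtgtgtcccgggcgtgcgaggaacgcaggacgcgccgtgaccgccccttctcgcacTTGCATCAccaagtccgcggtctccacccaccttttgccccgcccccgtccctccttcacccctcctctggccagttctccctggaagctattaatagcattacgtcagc
The letters stood in the windows of 7 of 17 list members with an entry, against 1219 of 27025 genes (4.51%). The list was made of genes of this response, so its larger share is no independent result. Of those 7, 6 were lower in K19R day 6 and 1, Atf3, was higher. Members without the letters also went both ways. Atf4, Atf5, Sesn2, Psat1, Shmt2 and Stc2 were lower, and Ddit3, Ddit4, Phgdh and Cebpb were higher. The match does not show that a factor binds there.

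A set of contractile genes was high in K19R day 6. Of 19 tested of 20 cardiac and muscle genes, 13 rose, 1 fell and 5 did not pass, with a median of 1.73. Acta2, smooth muscle actin, was at 49.4 and 58.5 CPM in K19R day 6, against 0.216 and 0.172 CPM in FLAG-WT day 2. FLAG-WT averaged 3.51 CPM at day 6, 1.09 CPM at day 10 and 0.526 CPM at day 0, all below either K19R day 6 library. Acta1, skeletal actin, was at 139 and 181 CPM in K19R day 6, against 0.604 and 0.241 CPM in FLAG-WT day 2, close to its FLAG-WT day 6 mean of 134 CPM. Actc1, cardiac actin, had 692 counts in K19R day 6 and 2 in FLAG-WT day 2, a ratio of 339 with a counting interval of 93.4 to 2802. Ttn, titin, was the member that fell, at 1.52 and 1.16 CPM in K19R day 6, against 17.03 and 17.1 CPM in FLAG-WT day 2.

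Genes of mesenchyme and fibroblasts moved in both directions. Of 16 tested of 19, 8 rose, 4 fell and 4 did not pass, with a median of 0.77. Col1a1, a chain of type I collagen, was at 10.7 and 15.4 CPM in K19R day 6, against 0.474 and 0.276 CPM in FLAG-WT day 2. Postn, periostin, had 126 counts in K19R day 6 and 0 in FLAG-WT day 2, at least 20.4-fold higher. Vim fell, at 45.9 and 51.3 CPM in K19R day 6, against 171 and 170.12 CPM in FLAG-WT day 2. The fibroblast markers Col1a1, Col1a2, Thy1, Lum and Dcn summed to 34.4 and 46.3 CPM in K19R day 6, against 7.72 and 7.31 CPM in FLAG-WT day 2, with 3 of 4 tested higher, Dcn lower and Lum at 0 in K19R day 6. Their part in the result was not tested.

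Polycomb genes were mostly lower. Eed itself, which carries the tag and mutation, was at 44.3 and 44.6 CPM in K19R day 6, against 111 and 108 CPM in FLAG-WT day 2 (log2 fold change -1.30 ± 0.08; adjusted p = 1.02e-13 by edgeR). Of 14 genes of PRC2 and its partners, 9 fell, 4 rose and 1 did not pass, with a median of -0.49. Jarid2, a targeting partner, was at 183 and 179 CPM in K19R day 6, against 573 and 564 CPM in FLAG-WT day 2, and Epop, an accessory subunit, at 117 and 111 CPM in K19R day 6, against 495 and 486 CPM in FLAG-WT day 2. The core genes Suz12 and Ezh2 differed less, with Suz12 at 284 and 264 CPM in K19R day 6, against 382 and 417 CPM in FLAG-WT day 2 and Ezh2 at 89.5 and 92.1 CPM in K19R day 6, against 128 and 137 CPM in FLAG-WT day 2. In all of these the K19R day 6 libraries lay below both FLAG-WT day 2 libraries. Rbbp7, a histone-binding subunit, rose, at 780.41 and 788 CPM in K19R day 6, against 408 and 412 CPM in FLAG-WT day 2. Eed averaged 42.7 CPM in FLAG-WT day 6, near its level in K19R day 6. Of 19 PRC1 genes, 11 fell, 5 rose and 3 did not pass, and Bmi1 was the largest fall, at 6.66 and 6.23 CPM in K19R day 6, against 24.8 and 27.8 CPM in FLAG-WT day 2.

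Hox genes, classical Polycomb targets, were low in both groups. Of 30 tested of 38, 19 fell, 2 rose and 9 did not pass, with a median of -1.37. Hoxa10 was at 0.321 and 0.493 CPM in K19R day 6, against 7.20 and 7.41 CPM in FLAG-WT day 2, the highest of the falling members in FLAG-WT day 2. Hoxa11 had 3 counts in K19R day 6 and 145 in FLAG-WT day 2, a ratio of 0.0203 with a counting interval of 0.00413 to 0.0604. Halr1, a noncoding RNA beside the Hoxa cluster, had 2 counts in K19R day 6 and 864 in FLAG-WT day 2. These transcripts were near the limit of detection in K19R day 6. Hoxb8 was 1 of the 2 that rose, with 26 counts in K19R day 6 and 1 in FLAG-WT day 2. Other Polycomb target regulators were divided, with 14 of 36 tested higher, 11 lower and 11 not passing. Irx3, a homeobox factor, was at 9.87 and 9.86 CPM in K19R day 6, against 1.21 and 0.759 CPM in FLAG-WT day 2.

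Targets of BMP rose and those of WNT were split. Of 13 tested BMP targets of 14, 10 rose, 2 fell and 1 did not pass, with a median of 1.43. Id2, an inhibitor of basic helix-loop-helix factors, was at 85.9 and 83.5 CPM in K19R day 6, against 12.2 and 11.5 CPM in FLAG-WT day 2, and Id3 at 62.03 and 61.5 CPM in K19R day 6, against 9.44 and 9.38 CPM in FLAG-WT day 2. Smad7, an inhibitory SMAD, fell, at 26.9 and 27.1 CPM in K19R day 6, against 68.5 and 72.5 CPM in FLAG-WT day 2. The groups did not overlap for any of these, as for 83.3% of all genes tested. Of 13 tested WNT targets of 14, 6 rose, 6 fell and 1 did not pass. Axin2, a feedback inhibitor of WNT, was at 10.9 and 9.65 CPM in K19R day 6, against 83.6 and 89.4 CPM in FLAG-WT day 2, and Dkk1, a secreted inhibitor, at 13.2 and 12.2 CPM in K19R day 6, against 107 and 101 CPM in FLAG-WT day 2. Both were several-fold lower. Rnf43, which removes WNT receptors, rose, at 11.4 and 12.8 CPM in K19R day 6, against 0.776 and 0.759 CPM in FLAG-WT day 2.

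Of 17 genes of the p53 pathway 11 rose, 2 fell and 4 did not pass, with a median of 0.60. Cdkn1a (p21), which halts the cell cycle, was at 263 and 287 CPM in K19R day 6, against 46.7 and 47.4 CPM in FLAG-WT day 2, and Btg2, an antiproliferative gene, at 289 and 367 CPM in K19R day 6, against 17.3 and 17.5 CPM in FLAG-WT day 2. Trp53 itself fell, at 207 and 208 CPM in K19R day 6, against 445 and 443 CPM in FLAG-WT day 2. The groups did not overlap for any of these, as for 83.3% of all genes tested. Of 24 cell cycle genes 13 fell, 5 rose and 6 did not pass. The replication helicase gene Mcm5 was at 233 and 255 CPM in K19R day 6, against 538 and 531 CPM in FLAG-WT day 2. Of 20 hypoxia and glycolysis genes 13 rose, 5 fell and 2 did not pass, and the glucose transporter gene Slc2a1 was at 693 and 711 CPM in K19R day 6, against 82.6 and 78.04 CPM in FLAG-WT day 2. With each line set against its own day 0, 5 of the 20 were higher and 6 lower, with a median of 0.03 in place of 0.55.

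Markers of other lineages were mostly at low levels. Of 12 tested trophoblast genes of 14, 8 rose, none fell and 4 did not pass, with a median of 2.26. Cdx2, of trophectoderm and hindgut, was at 7.42 and 8.59 CPM in K19R day 6, against 0.259 and 0.276 CPM in FLAG-WT day 2. Of 18 tested primitive streak and mesoderm genes of 20, 5 rose, 6 fell and 7 did not pass. Eomes was at 13.2 and 14.3 CPM in K19R day 6, against 32.1 and 34.1 CPM in FLAG-WT day 2, and T (brachyury) was at 0.963 and 0.634 CPM in K19R day 6, against 0.129 and 0.345 CPM in FLAG-WT day 2. T stayed near the limit of detection. Of 12 tested endothelial genes of 13, 7 fell and 2 rose. Pecam1, also a gene of naive stem cells, was at 38.7 and 30.9 CPM in K19R day 6, against 122 and 129 CPM in FLAG-WT day 2. Of 13 tested two-cell-like genes of 15, 9 fell and none rose, though copies of the Zscan4 family share reads. Blood (2 of 9 tested higher, 3 lower), neural progenitor (4 of 13 higher, 4 lower), neuron (6 of 14 higher, 6 lower), surface ectoderm (6 of 11 higher, 2 lower) and germ cell genes (6 of 18 higher, 5 lower) held called members in both directions.

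Imprinted genes mostly rose, 12 of 20, with 4 lower and 4 not passing. The noncoding RNA H19 was at 7729 and 8112 CPM in K19R day 6, against 2364 and 2259.87 CPM in FLAG-WT day 2, and Grb10, an inhibitor of insulin signalling, fell, at 27.04 and 29.5 CPM in K19R day 6, against 165 and 164 CPM in FLAG-WT day 2. Sex-linked genes differed too, some already between the stem cell lines. All 6 tested Y-linked genes of 9 were higher, with Eif2s3y at 53.97 and 55.1 CPM in K19R day 6, against 5.73 and 5.90 CPM in FLAG-WT day 2. With each line set against its own day 0, 1 of the 6 was higher and 2 lower. At day 0 Eif2s3y already averaged 33.1 CPM in K19R and 4.36 CPM in FLAG-WT. Xist, the RNA that silences an X chromosome, was at 2.97 and 3.20 CPM in K19R day 6, against 19.2 and 20.9 CPM in FLAG-WT day 2. Its antisense partner cannot be told apart from it without strand.

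The largest falls beyond those lists lay in genes of varied function. Fbp2, a muscle fructose bisphosphatase, was at 1.52 and 1.41 CPM in K19R day 6, against 73.8 and 73.6 CPM in FLAG-WT day 2. Grm6, a glutamate receptor, was at 0.562 and 0.282 CPM in K19R day 6, against 25.01 and 25.9 CPM in FLAG-WT day 2, and averaged 0.0206 CPM in FLAG-WT day 0, 0.115 CPM in FLAG-WT day 6 and 57.6 CPM in K19R day 2. Gbx2, a naive and hindbrain factor, was at 0.161 and 0.0352 CPM in K19R day 6, against 11.9 and 11.2 CPM in FLAG-WT day 2. Among the largest rises, Hsd3b1, an enzyme of steroid synthesis, came after Afp, with 707 counts in K19R day 6 and 1 in FLAG-WT day 2, a ratio of 692 with a counting interval of 124 to 27370.1. The largest rises also held Ankrd1 and Cyr61, both known targets of YAP. Ankrd1 was at 98.8 and 109 CPM in K19R day 6, against 0.604 and 0.862 CPM in FLAG-WT day 2, and Cyr61 at 489.90 and 569 CPM in K19R day 6, against 5.61 and 5.62 CPM in FLAG-WT day 2.

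Genes that lay against the FLAG-WT direction from day 0 to day 10 were fewer, 404 and 625. The 8 with the largest change in each class (at least 10 CPM in the higher group, groups not overlapping) are given here or above. Among later-higher genes that were lower in K19R day 6, Ndnf, a secreted neurotrophic factor, was at 0.562 and 0.423 CPM in K19R day 6, against 16.9 and 17.2 CPM in FLAG-WT day 2. Cnr1, a cannabinoid receptor, was at 1.73 and 1.51 CPM in K19R day 6, against 14.7 and 15.2 CPM in FLAG-WT day 2. Gpat3, an enzyme of triglyceride synthesis, was at 2.65 and 2.78 CPM in K19R day 6, against 22.3 and 25.6 CPM in FLAG-WT day 2, and Irgm1, an interferon-induced GTPase, at 4.17 and 4.19 CPM in K19R day 6, against 32.1 and 32.8 CPM in FLAG-WT day 2. The other members were Chac1, Fgf5, Sox7 and Dkk1. For 3 of the 8 the later-higher class rests on levels near the limit of detection. Fgf5 averaged 0 CPM in FLAG-WT day 0 and 0.213 CPM in FLAG-WT day 10. Cnr1 averaged 0.0206 and 0.213 CPM in these groups, and Ndnf 0.140 and 0.656 CPM. The 8 were divided in K19R day 2, where the mean of 4 was above and that of 4 below FLAG-WT day 2. Ndnf averaged 39.2 CPM and Irgm1 91.4 CPM in K19R day 2, but Gpat3 2.26 CPM. In FLAG-WT itself all 8 averaged less at days 6 and 10 than at day 2. Sox7 averaged 105 CPM in FLAG-WT day 2, 10.7 CPM in day 6 and 4.41 CPM in day 10. From day 2 on, K19R day 6 thus lay on the same side as later FLAG-WT for these genes.

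Among later-lower genes that were higher in K19R day 6, Col1a1 came first. Catsperg1, of a sperm calcium channel, was at 11.1 and 10.1 CPM in K19R day 6, against 0.431 and 0.414 CPM in FLAG-WT day 2. Padi2, which converts arginine to citrulline, was at 14.4 and 15.8 CPM in K19R day 6, against 0.474 and 0.931 CPM in FLAG-WT day 2. Wfdc2, a secreted protease inhibitor, was at 44.5 and 37.7 CPM in K19R day 6, against 1.85 and 2.31 CPM in FLAG-WT day 2. The Y-linked Uba1y, of a ubiquitin-activating enzyme, was at 11.2 and 9.37 CPM in K19R day 6, against 0.690 and 0.586 CPM in FLAG-WT day 2. Uba1y already differed at day 0, with means of 2.40 CPM in K19R and 0.628 CPM in FLAG-WT. With each line set against its own day 0, its log2 difference was 2.06 in place of 4.01. Hspb8, a small heat shock protein, was at 56.1 and 53.2 CPM in K19R day 6, against 3.71 and 4.59 CPM in FLAG-WT day 2. Chrnb4, a nicotinic receptor subunit, was at 10.2 and 12.3 CPM in K19R day 6, against 0.905 and 0.966 CPM in FLAG-WT day 2, and Sema3c, a guidance ligand, at 16.5 and 18.4 CPM in K19R day 6, against 1.77 and 1.52 CPM in FLAG-WT day 2. All 8 averaged more in K19R day 6 than in FLAG-WT day 6, where Wfdc2 had 8.31 CPM and Catsperg1 0.557 CPM. Within FLAG-WT, Uba1y and Sema3c averaged less at day 6 than at day 2. The other members averaged more, such as Wfdc2, which had 2.08 CPM at day 2.

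The lines also differed at day 0, where 2003 of 19092 genes passed (10.5%). The change of K19R from day 0 to day 6 was therefore set against the change of FLAG-WT from day 0 to day 2. By this test 9975 genes passed (52.2%), 4993 higher (26.2%) and 4982 lower (26.1%). Serum and lipid genes stayed on the same side, with 18 of 20 higher and none lower, as did the pluripotency genes, with 13 of 14 general genes lower. The counts for the serum list were 16 higher and none lower without FLAG-WT day 0 replicate 2, and its median was 5.70 in place of 7.91. Members at or near 0 in K19R day 0 entered these medians at their fitted values, with no bound set. Apoa2 and the fibrinogen genes Fgb and Fgg averaged 0 CPM there, and Ttr 0.018 CPM. The size of these medians is thus uncertain and is not to be set against that of the direct comparison. Other lists held fewer calls by this test. Of the endoderm regulators 3 were higher and 5 lower, of the cardiac and muscle genes 8 and 2, and of the endothelial genes 1 and 3. Of the hypoxia and glycolysis genes 5 were higher and 6 lower. The 19 PRC1 genes held 5 higher and 7 lower, with a median of -0.19 in place of -0.28. The median of the WNT targets was -0.27 in place of 0.46, with 5 higher and 6 lower. For Afp the fitted value rests in part on FLAG-WT day 0 replicate 2. K19R day 0 held 0.295 and 0.0931 CPM of Afp, against 1.78 and 54.99 CPM in FLAG-WT day 0. The fitted log2 difference of Afp was 16.84, and 12.83 without FLAG-WT day 0 replicate 2. Among the largest falls by it were Nlrc4, an inflammasome sensor, at 0.321 and 0.211 CPM in K19R day 6, against 12.1 and 14.1 CPM in FLAG-WT day 2, and Grm6.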

How the data were processed

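RNA-seq libraries were made from total RNA, per the labels' protocols. The deposited values are raw counts per gene name, made by the authors with featureCounts 1.6.3 over GENCODE M19 on GRCm38 with no strand option, per the file headers. STAR 2.7.0c and Trim Galore 0.6.0 are named in the submitters' processing notes. The 16 FLAG-EED libraries were fitted together with edgeR 4.0.16 in R 4.3.3 (quasi-likelihood test, 8 residual degrees of freedom, TMM scaling, filterByExpr with a minimum count of 10 and total of 15). P-values were adjusted by Benjamini-Hochberg over 19092 genes, with a threshold of 0.05. The test was first run on simulated counts with known changes. No label says whether replicates came from separate cultures, and the p-values then cover the spread between libraries alone, which may be technical.

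The comparison, gene lists and classes were chosen with earlier results of these data known. Named genes were the 10 largest rises and falls (at least 10 CPM in the higher group, groups not overlapping), the 8 largest against each later FLAG-WT direction, up to 4 per direction of each list, 5 per direction of the line-adjusted comparison, and a fixed set of regulators. Apart from markers, Alb, Apob, Rbp4, Cubn, Hnf4a, Asns, Slc7a11 and H19 were chosen after their values were seen. Bounds use 3 counts per library, and counting intervals cover counting error only. Positions used log2 CPM with a prior count of 2. Promoter sequences are from RefSeq. Some genes that the rule names are not reported here. Alternatives were other scalings, no filter, DESeq2 1.42.0, a replicate block, 4 libraries alone, a 1.5-fold threshold and leaving out each library.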

Additional observations from a re-analysis of the deposited data

How the results depend on the processing

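The 12511 genes that passed in K19R day 6 against FLAG-WT day 2 became 12531 with RLE size factors, 12492 with library totals, 12403 with no filter, 11701 with DESeq2 (11627 of the 12511 shared in direction) and 12788 with the 4 libraries alone. Testing against a 1.5-fold change by glmTreat left 6814 genes, 3731 higher and 3083 lower. Replicate numbers did not pair the libraries (correlation of deviations -0.023 for the compared groups, -0.030 to 0.048 over 28 pairs of groups), and the fit with a replicate block gave 12412. Under library totals alone, K19R day 6 against FLAG-WT day 6 gave 8582 higher and 3188 lower, and against FLAG-WT day 10 9028 higher and 3953 lower in place of 6204 and 6157; the cause was not tested.

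Leaving out each library in turn gave 10913 to 11398 genes (5622 to 5930 higher, 5291 to 5486 lower), and 8901 to 9319 for the line-adjusted comparison (4353 to 4740 higher, 4431 to 4648 lower). Against FLAG-WT day 0 it gave 12613 to 12868 (6381 to 6667 higher, 6135 to 6241 lower), day 6 9711 to 9942 (4425 to 4771 and 5030 to 5361) and day 10 11287 to 11486 (5562 to 5741 and 5610 to 5846). Later-higher genes that were higher numbered 3156 to 3409 (335 to 411 the other way, of 4836 to 5070), and later-lower genes that were lower 2599 to 2954 (509 to 598 the other way, of 5127 to 5542). An arm left with 1 library is assumed to vary like the other groups. Nanog, which did not pass, lay between -0.095 and 0.061 on the log2 scale and changed sign without K19R day 6 replicate 2. Depth limits the Hox genes and the genes with a few counts in one group.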
